A study of Drosophila melanogaster with 8 samples.

Results

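CaBP1, Ire1, CG14207 and eIF2alpha are the protein folding and stress genes described here, in Drosophila melanogaster testes that lack bam function. They were chosen by symbol, with earlier results of these data known, as 4 of the 522 genes in the deposited poly(A) site tables. Each has 1 gene entry (of 529) with 2 of the 1082 counted windows. The authors' run counted only supplied sites, in a list named for bam against spermatocytes. Shares of all entries, genes or windows given below refer to this list and not to all expressed genes. The labels give 4 genotypes with 2 libraries each, and testes from about 150 pairs went into each library. All males carried nosGal4 over the Y chromosome and, on the third chromosome, bam86 recombined with bamGal4 over bam1. The control group had no UAS transgene on its second chromosome. The cbc group carried a single copy of UAS>cbc-V5, the PCF11 group a single copy of UAS>PCF11-RF-HA, and the group called cbc+PCF11 here carried both transgenes over a wild-type second chromosome. Crosses were kept at 25 °C for 3 days and the progeny then stood at 29 °C until dissection. The nos and bam drivers act in early germ cells, so overexpression is limited to cells in which they are active, and a bam mutant testis is filled with germ cells that do not stop dividing and do not become spermatocytes. A difference from the control cannot be told apart from an effect of carrying any UAS transgene. Cbc, the fly Clp1, and Pcf11 belong to the cleavage factor that helps to cut and polyadenylate nascent transcripts, and the series asks how raising them changes the choice of poly(A) site.

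Cells meet misfolded protein in several ways. In the endoplasmic reticulum (ER), protein disulfide isomerases form and rearrange disulfide bonds. CaBP1 is the fly member of this family related to mammalian P5. In the cytosol, small heat shock proteins hold unfolded clients for other chaperones, and CG14207 is such a protein, known in fly muscle for working with the co-chaperone Starvin. Ire1 is a kinase and endoribonuclease of the ER membrane that senses unfolded protein and splices the Xbp1 transcript. eIF2alpha is the subunit of translation initiation factor eIF2 on which stress pathways converge, because the kinases PEK and Gcn2 phosphorylate it and so lower general translation. Where a gene has more than 1 poly(A) site in its 3' untranslated region (3' UTR), the choice sets how much of that region the mRNA keeps without changing the protein.

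Reads at the listed windows came to 238162 to 333675 per library. These are not library totals, which were not analysed here. Duplicate libraries differed beyond counting noise in their window counts, with a chi-square over its degrees of freedom of 6.02 to 13.4. Of the marker genes of the testis cell types, 1 of 9 for early germ cells, 2 of 12 for spermatocytes and 1 of 9 for cyst and hub cells are among the listed genes, and none of 5 for spermatids or 8 for sheath, muscle and fat, so the tissue label could hardly be checked. The tables list neither cbc nor Pcf11, so the overexpressed transcripts could not be checked. The labels call the libraries duplicates and do not state separate cultures, so the p-values rest on the spread of these libraries, which may be technical.

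All 8 windows overlap the annotated 3' UTR of their gene, and the distal window of Ire1 does so only in part. Each window covers the bases just before a listed poly(A) site, and the proximal window is the one nearer to the stop codon. Positions follow the deposited tables (BDGP6). CaBP1-PA lies on the minus strand of chromosome 2L, with a proximal window at 16355051 to 16355081 and a distal window at 16354944 to 16354974. Its sites are 131 and 238 bases after the stop codon, and the distal site falls exactly on the annotated end of the transcript CaBP1-RA. CG14207-PA is on the plus strand of X, with windows at 19611102 to 19611132 and 19611219 to 19611249, whose sites lie 242 and 359 bases after the stop codon. Each is within 24 bases of an annotated transcript end. Ire1-PB is on the minus strand of 3R, with windows at 19854360 to 19854398 and 19853894 to 19853924, and sites 80 and 546 bases after the stop codon. The Ire1 proximal window is wider than the others, at 38 bases against 30, and the Ire1 distal site lies 14 bases past the annotated gene end. eIF2alpha-PA is on the minus strand of X, with a proximal window at 16445488 to 16445518 and a distal window at 16445350 to 16445380. Its sites are 67 and 205 bases after the stop codon, and the proximal site is 7 bases past the end of the short transcript eIF2alpha-RA. The other sites lie further from any annotated transcript end of their gene. The nearest such end is 107 bases from the CaBP1 proximal site, 452 from the Ire1 proximal site and 145 from the eIF2alpha distal site. In 3 of the 4 genes the sites are closer together than is usual in the tables. They are 107 bases apart in CaBP1, 117 in CG14207 and 138 in eIF2alpha, against a median of 440 bases over all entries (quartiles 230 and 759), while those of Ire1 are 466 bases apart. 

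**Figure D1:**
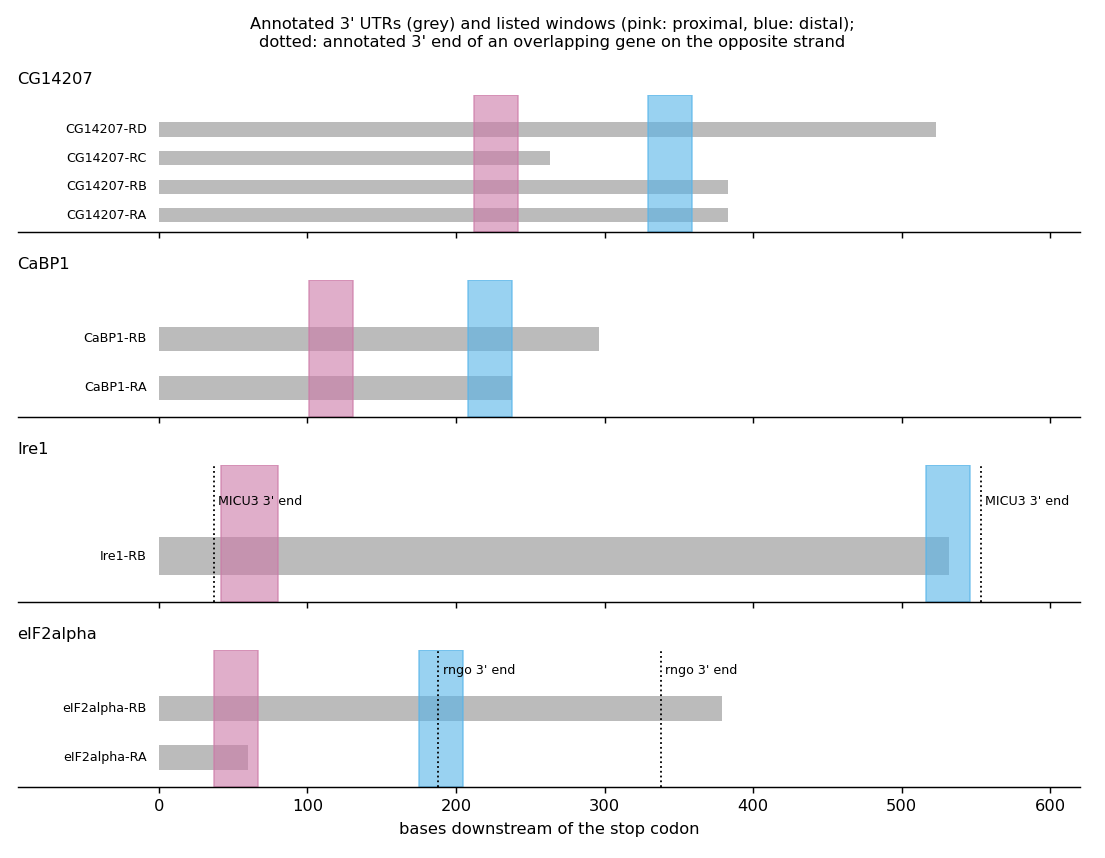
Map of the 3' UTRs of the 4 genes, with distance from the stop codon in bases on the horizontal axis. Grey bars are annotated transcripts, pink and blue blocks the proximal and distal windows, and dotted lines annotated 3' ends of genes on the opposite strand. One MICU3 end lies 5 bases outside the proximal window of Ire1, and a rngo end lies inside the distal window of eIF2alpha.

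Counting ignored strand, per the log of the authors' run, and windows of 2 genes overlap a gene on the opposite strand. Both windows of Ire1 lie within the 3' UTR of MICU3, a gene of the mitochondrial calcium uptake family, and the longest MICU3 transcript ends 5 bases beyond the proximal window of Ire1. A shorter MICU3 transcript ends 7 bases outside the distal window. The distal window of eIF2alpha shares 21 bases with a listed window of rngo, which encodes a ubiquitin receptor. Reads of such partners cannot be told apart without strand, so the values of Ire1 and of the distal window of eIF2alpha are uncertain. The proximal usage and summed reads of eIF2alpha include that distal window and are uncertain too. No other annotated gene overlaps the windows of CaBP1 or CG14207.

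Usage of the proximal site rose in CG14207 and CaBP1 in all 3 overexpression genotypes, by log2 odds ratios of 0.96 to 2.29. It did not pass the test in Ire1 or eIF2alpha in any genotype. Summed reads of CG14207 and eIF2alpha rose in all 3 genotypes, by 1.63-fold to 3.09-fold, and those of Ire1 rose with cbc+PCF11. Proximal usage here means the share of reads at the proximal window, in percent of both windows. It was tested with edgeR's quasi-likelihood method over 516 entries, with p-values adjusted by Benjamini and Hochberg and a threshold of 0.05. Against the control, 2 of 4 members were called higher with cbc, where 5.62% of all entries were called higher, 1.94% lower and 7.56% in either direction. With PCF11 it was again 2 of 4, where 9.11% of entries were called higher, 1.36% lower and 10.5% in either direction. With cbc+PCF11 it was 2 of 4 as well, where these shares were 7.56%, 2.71% and 10.3%. The median log2 odds ratio of the 4 members was 1.05 with cbc, 1.39 with PCF11 and 0.46 with cbc+PCF11, beside 0.14, 0.36 and 0.27 over all entries. The 3 comparisons share the control libraries. As the members were chosen with earlier results of these data known, their counts and medians beside those of all entries are a description.

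**Figure D2:**
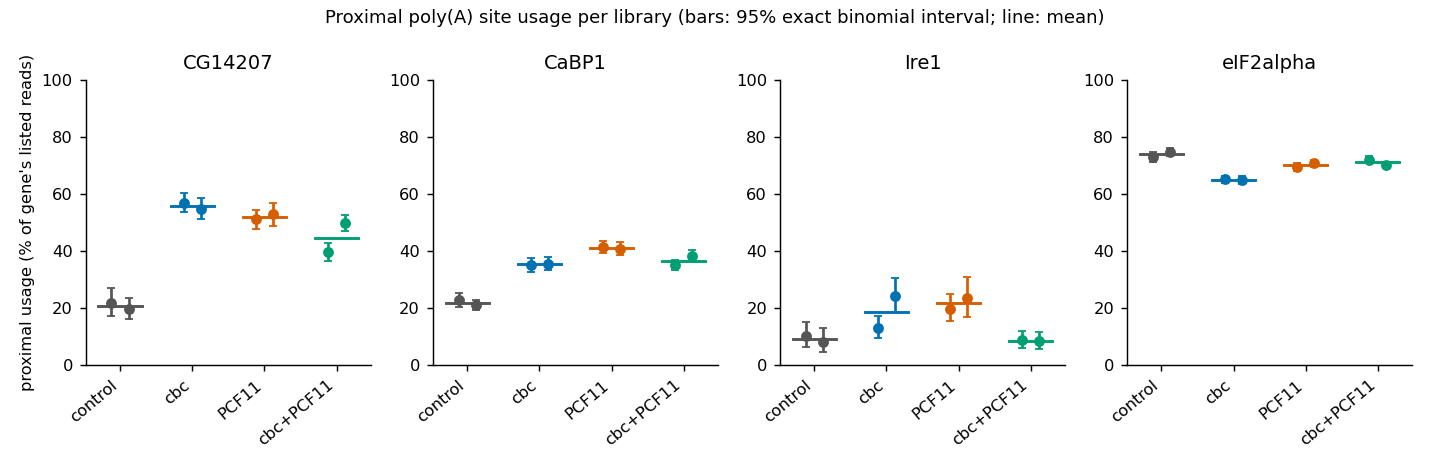
Proximal usage (percent of reads at both windows) in each of the 8 libraries, by genotype. Points are libraries with 95% exact binomial intervals for counting error, and short lines are means of 2 libraries. Every overexpression library lies above both controls in CG14207 and CaBP1, and below both in eIF2alpha.

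The folding enzyme CaBP1 had 269 proximal of 1184 reads and 468 of 2231 in the control libraries, or 22.7% and 21.0%. With cbc it had 566 of 1617 and 648 of 1826 reads, or 35.0% and 35.5%. With PCF11 the shares were 41.4% (889 of 2149) and 40.7% (685 of 1681), and with cbc+PCF11 they were 35.0% (868 of 2480) and 38.1% (763 of 2003). All 6 overexpression libraries lay above both controls, as they did in CG14207. Of all entries, 28.7%, 36.8% and 32.8% had both libraries above both controls in the 3 comparisons. The exact 95% binomial intervals, which cover counting error only, ended at 25.2% or lower in the controls and began at 32.7% or higher in the other libraries. Mean usage was 21.8% ± 1.23 in controls, 35.2% ± 0.342 with cbc, 36.5% ± 2.19 with cbc+PCF11 and 41.1% ± 0.437 with PCF11 (SD, n = 2 per group).

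For CaBP1 the log2 odds ratio (± approximate SE) was 0.96 ± 0.21 with cbc (edgeR adjusted p = 0.0250), 1.32 ± 0.21 with PCF11 (edgeR adjusted p = 0.00605) and 1.04 ± 0.21 with cbc+PCF11 (edgeR adjusted p = 0.0177). This placed it above 76.2%, 77.7% and 74.2% of all tested entries. The shift came with more reads at the proximal window. In CPM (reads scaled to the library's listed total with TMM factors), that window stood at 1242 ± 269.9 in controls. The cbc group had 2297 ± 462, the PCF11 group 3168 ± 465 and the cbc+PCF11 group 2801 ± 202. It was at 1.84-fold (edgeR adjusted p = 0.00519), 2.54-fold (edgeR adjusted p = 1.67e-04) and 2.25-fold (edgeR adjusted p = 4.61e-04) of the control, where 12.6%, 13.0% and 16.5% of 962 tested windows were called higher. The distal window stood at 0.938-fold, 1.01-fold and 1.09-fold and did not pass in any of them (edgeR adjusted p = 0.805, 0.968 and 0.698). The call with cbc was lost without control library 2, without either cbc library and without either PCF11 library (highest edgeR adjusted p = 0.152). It was also lost when only the 4 libraries compared were fitted (edgeR adjusted p = 0.109). The call with PCF11 was lost without PCF11 library 1 (edgeR adjusted p = 0.0544), and that with cbc+PCF11 without library 1 or library 2 of that genotype (edgeR adjusted p = 0.0518 and 0.129) or with only the 4 libraries (edgeR adjusted p = 0.0730). The log2 odds ratio stayed between 0.89 and 1.39 in all of these fits. The rise of the proximal window with cbc was lost without cbc library 2 (edgeR adjusted p = 0.107).

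CG14207, the small heat shock protein, had the largest log2 odds ratio of the 4 genes in each genotype. Its control libraries had 64 proximal of 294 reads and 94 of 483, or 21.8% and 19.5%. The cbc libraries had 522 of 917 and 378 of 690, or 56.9% and 54.8%. The PCF11 libraries had 497 of 975 and 327 of 620, or 51.0% and 52.7%, so that the distal window no longer held most of the reads with either transgene alone. With both transgenes the libraries had 382 of 966 and 672 of 1352, or 39.5% and 49.7%, which was above both controls and below all 4 libraries of the single transgenes. The widest exact 95% binomial interval in the controls was 17.2% to 26.9%. Weighted by reads, the distance from stop codon to poly(A) site was 335 bases ± 1.91 in controls, 294 ± 1.77 with cbc, 298 ± 1.46 with PCF11 and 307 ± 8.41 with cbc+PCF11 (SD, n = 2 per group), which gives the shares as lengths.

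The log2 odds ratio of CG14207 was 2.29 ± 0.31 with cbc (edgeR adjusted p = 0.00378), 2.06 ± 0.31 with PCF11 (edgeR adjusted p = 0.00588) and 1.64 ± 0.31 with cbc+PCF11 (edgeR adjusted p = 0.0161). It was higher than the odds ratio of 90.5%, 87.2% and 84.3% of all tested entries. Reads at the proximal window rose from 269 CPM ± 26.7 in controls to 1674 ± 203 with cbc, 1655 ± 424 with PCF11 and 1818 ± 739 with cbc+PCF11. These were 6.20-fold, 6.13-fold and 6.73-fold of the control (edgeR adjusted p = 1.58e-06, 2.66e-06 and 1.24e-06). The distal window was at 1.26-fold with cbc and 1.48-fold with PCF11, neither of which passed (edgeR adjusted p = 0.350 and 0.0971). It rose with cbc+PCF11, to 2.08-fold (edgeR adjusted p = 0.00271). The proximal window took 83.7% of the gain in reads with cbc, 73.4% with PCF11 and 57.8% with cbc+PCF11. The usage call with cbc was lost without cbc library 1 (edgeR adjusted p = 0.0525). That with cbc+PCF11 was lost without library 2 of that genotype (log2 odds ratio 1.34, edgeR adjusted p = 0.129) and with only the 4 libraries compared (edgeR adjusted p = 0.0602). That with PCF11 passed without any 1 of the 8 libraries (highest edgeR adjusted p = 0.0484).

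**Figure D3:**
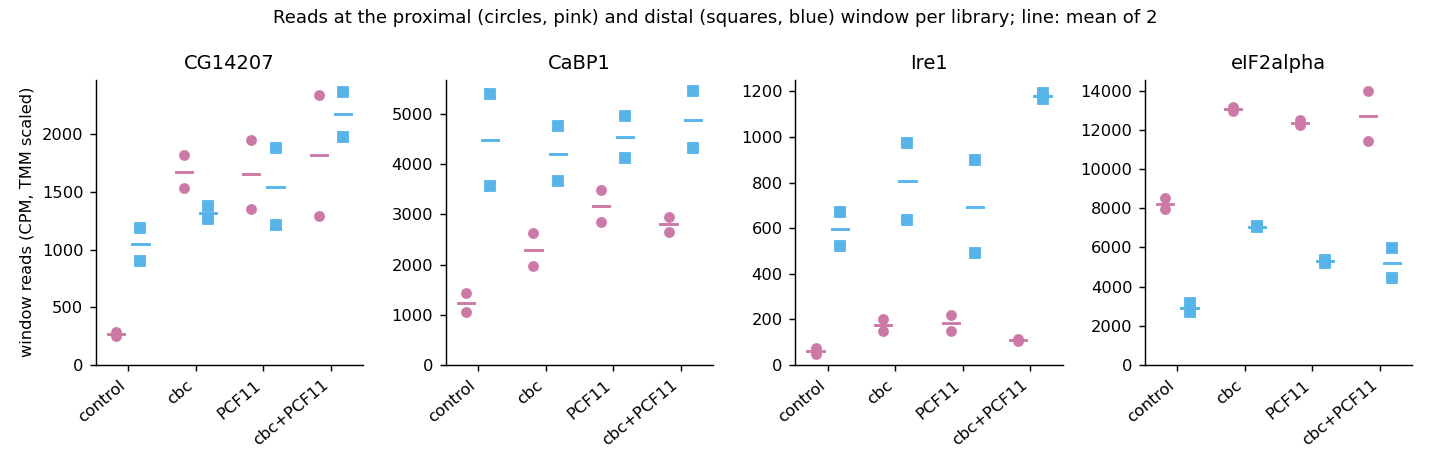
Reads at the proximal window (pink circles) and distal window (blue squares) of each gene in CPM with TMM scaling, by genotype. Each point is a library and each line a mean of 2. The proximal window of CG14207 rises from 269 CPM in the controls to 1655 or more in the other genotypes, while the distal window of CaBP1 stays between 4215 and 4893 CPM on average.

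The ER stress sensor Ire1 had few reads, 154 to 385 per library. Its control libraries had 19 proximal of 191 reads and 15 of 185, or 9.95% and 8.11%. With cbc they had 42 of 322 and 50 of 207, or 13.0% and 24.2%, which lie far apart. With PCF11 they had 56 of 284 and 36 of 154, or 19.7% and 23.4%. With cbc+PCF11 they had 33 of 385 and 30 of 365, or 8.57% and 8.22%, inside the range of the controls. The exact 95% binomial interval of control library 1 was 6.10% to 15.1%, which overlaps that of cbc library 1, 9.56% to 17.2%. Both libraries of each single transgene lay above both controls, a place that 28.7% of all entries held with cbc and 36.8% with PCF11. The log2 odds ratio was 1.14 ± 0.57 with cbc, 1.45 ± 0.57 with PCF11 and -0.12 ± 0.60 with cbc+PCF11, and none passed (edgeR adjusted p = 0.257, 0.150 and 0.923). The value with cbc was 0.59 without cbc library 2 and 1.68 without cbc library 1. The value with cbc+PCF11 was 0.05 without control library 1.

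Ire1 gained reads at its distal window with both transgenes, from 596 CPM ± 107 to 1180 ± 18.9, which is 1.98-fold of the control (edgeR adjusted p = 0.0192). That call was lost without control library 2 (edgeR adjusted p = 0.152) and without either library of cbc+PCF11 (edgeR adjusted p = 0.0557 and 0.0707). Its proximal window was at 2.91-fold with cbc and 3.09-fold with PCF11, just short of the threshold (edgeR adjusted p = 0.0705 and 0.0546). Without control library 1 both passed (edgeR adjusted p = 0.0496 and 0.0485). DESeq2 called both, with adjusted p = 0.0495 and 0.0369. The part of MICU3 in these values was not tested.

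eIF2alpha differed from the other members in that its proximal site was the main site. The controls had 2177 proximal of 2985 reads and 2597 of 3479, or 72.9% and 74.6%, a higher mean than in 95.2% of tested entries. With cbc the libraries had 3788 of 5825 and 3203 of 4940, or 65.0% and 64.8%. With PCF11 they had 69.5% (3112 of 4480) and 70.6% (3023 of 4280), and with cbc+PCF11 71.9% (3372 of 4688) and 70.1% (4023 of 5738). All 6 lay below both controls, toward the distal site, and the cbc libraries lay lowest. Such a place below both controls was held by 20.7%, 15.9% and 21.3% of entries in the 3 comparisons. The log2 odds ratio was -0.60 ± 0.17 with cbc (edgeR adjusted p = 0.0658), -0.27 ± 0.17 with PCF11 (edgeR adjusted p = 0.370) and -0.20 ± 0.17 with cbc+PCF11 (edgeR adjusted p = 0.508). DESeq2 called the shift with cbc (adjusted p = 0.00209). Counting error is small here, with exact 95% intervals of 71.3% to 74.5% in control library 1 and 63.8% to 66.3% in cbc library 1.

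Both windows of eIF2alpha gained reads. The proximal window, which overlaps no other gene, rose from 8232 CPM ± 394 in controls to 13081 ± 156 with cbc, 12384 ± 206 with PCF11 and 12724 ± 1824 with cbc+PCF11. These were 1.59-fold, 1.5-fold and 1.55-fold of the control (edgeR adjusted p = 8.50e-04, 0.00235 and 0.00126). The distal window was at 2.41-fold, 1.81-fold and 1.78-fold (edgeR adjusted p = 1.59e-05, 9.33e-04 and 9.69e-04). The rngo window that shares its bases held 950 and 933 reads in the controls, where the eIF2alpha window held 808 and 882. It held 634 and 548 with cbc, 384 and 494 with PCF11, and with cbc+PCF11 575 and 507, while the eIF2alpha window held 1257 to 2037. The counts of the overlapping windows thus moved in opposite directions in all 6 overexpression libraries. The sources used here do not say how reads that touch both windows were assigned.

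Reads summed over both windows were tested for 516 genes, and changes are relative to the listed genes as a whole. In bulk testes, more cells of a type and more RNA per cell cannot be told apart. With cbc, 2 of the 4 members rose, where 14.1% of all genes were called higher and 24.6% in either direction. With PCF11 it was 2 of 4, against 12.6% and 21.9%, and with cbc+PCF11 3 of 4, against 18.8% and 32.6%. None fell. The median log2 change of the 4 was 0.75, 0.59 and 0.86, beside -0.0026, 0.03 and 0.04 over all genes. These too are a description of genes chosen with earlier results known.

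CG14207 had 1123 and 1462 CPM in the control libraries. It had 3186 and 2820 with cbc, 3890 and 2601 with PCF11, and with cbc+PCF11 3262 and 4736, and no overexpression library overlapped the controls. Of all genes, 31.6%, 31.6% and 33.1% had both libraries above both controls in the 3 comparisons. It was at 2.32-fold (log2 1.21 ± 0.22, edgeR adjusted p = 5.23e-04), 2.51-fold (log2 1.33 ± 0.22, edgeR adjusted p = 3.08e-04) and 3.09-fold (log2 1.63 ± 0.22, edgeR adjusted p = 4.31e-05) of the control.

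eIF2alpha, whose summed reads include the distal window that overlaps rngo, had 11402 and 10532 CPM in controls. Its libraries stood at 20236 and 20190 with cbc, 17873 and 17952 with PCF11, and with cbc+PCF11 15830 and 20102. Again the groups did not overlap with the controls. The changes were 1.84-fold (log2 0.88 ± 0.12, edgeR adjusted p = 2.59e-05), 1.63-fold (log2 0.71 ± 0.12, edgeR adjusted p = 2.85e-04) and 1.64-fold (log2 0.71 ± 0.12, edgeR adjusted p = 1.58e-04). The calls for CG14207 and eIF2alpha passed without any 1 of the 8 libraries. The log2 change of CG14207 with PCF11 was 1.01 without PCF11 library 1.

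Ire1 had 730 and 560 CPM in the controls. It had 1119 and 846 with cbc, 1133 and 646 with PCF11, and with cbc+PCF11 1300 and 1279. The lower PCF11 library thus lay between the controls and the higher one above them, while both libraries of cbc and of cbc+PCF11 lay above them. The rise with cbc+PCF11 was 2.0-fold (log2 1.0 ± 0.27, edgeR adjusted p = 0.00999), and was lost without control library 2 (log2 0.82, edgeR adjusted p = 0.0765). With cbc the change was 1.53-fold and with PCF11 1.38-fold, and neither passed (edgeR adjusted p = 0.117 and 0.238).

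CaBP1 had 4523 and 6754 CPM in the controls, the widest spread of the 4 genes there. It had 5617 and 7463 with cbc, 8574 and 7051 with PCF11, and with cbc+PCF11 8374 and 7017. The changes were 1.16-fold, 1.38-fold and 1.36-fold, and none passed (edgeR adjusted p = 0.421, 0.0734 and 0.0658). Without control library 2, the higher one, the changes with PCF11 and with cbc+PCF11 were called (log2 0.79 and 0.77, edgeR adjusted p = 0.0100 and 0.00903). Without control library 1, the change with cbc was -0.05.

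**Figure D4:**
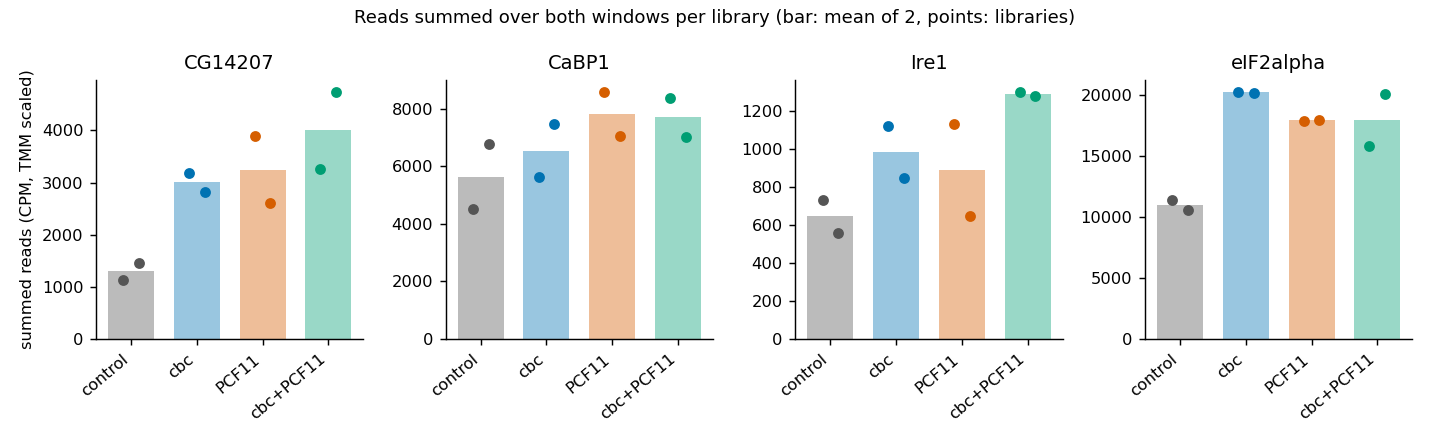
Reads summed over both windows of each gene, in CPM with TMM scaling. Bars are means of 2 libraries and points the libraries. CG14207 and eIF2alpha are higher in every overexpression library than in both controls (1123 and 1462 CPM, 11402 and 10532 CPM), while CaBP1 and Ire1 overlap with their controls in some genotypes.

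The overexpression genotypes were also compared with each other, to see whether the transgenes act differently on these genes. No member differed between them by edgeR, in usage or in summed reads. Over all 516 entries edgeR called 0 (0.00%) for usage in each of the 3 comparisons, with 44, 32 and 18 entries at an unadjusted p under 0.05, and DESeq2 called 5, 4 and 1. In summed reads edgeR called 0 (0.00%) of 516 genes for PCF11 against cbc, with 35 at an unadjusted p under 0.05 and 0 by DESeq2. It called 0.388% for cbc+PCF11 against cbc and 0.194% for cbc+PCF11 against PCF11. In CaBP1, PCF11 libraries lay above those of the other genotypes, by a log2 odds ratio of 0.36 ± 0.20 over cbc (edgeR adjusted p = 0.696) and with -0.28 ± 0.20 for cbc+PCF11 against PCF11 (edgeR adjusted p = 0.992). In CG14207 the order was cbc, then PCF11, then cbc+PCF11, with -0.23 ± 0.30 for PCF11 against cbc (edgeR adjusted p = 0.849) and -0.65 ± 0.30 for cbc+PCF11 against cbc (edgeR adjusted p = 0.751). In Ire1 the usage with both transgenes differed from that with PCF11 alone by -1.57 ± 0.56 (edgeR adjusted p = 0.992) and from that with cbc alone by -1.25 ± 0.56 (edgeR adjusted p = 0.751). In eIF2alpha the usage with both was higher than with cbc by 0.40 ± 0.17 (edgeR adjusted p = 0.739).

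The interaction term asks whether both transgenes together had the sum of their single effects on the log2 scale. It was negative for usage in CG14207, at -2.71 ± 0.43 (edgeR adjusted p = 0.0170), so the combined effect was smaller than the sum. For usage, 1.74% of entries were called for the interaction and 1.36% were called lower. In CaBP1 it was -1.24 ± 0.29 (edgeR adjusted p = 0.0710), in Ire1 -2.71 ± 0.80 (edgeR adjusted p = 0.148) and in eIF2alpha 0.67 ± 0.24 (edgeR adjusted p = 0.195). For summed reads, 10.3% of genes were called for the interaction and 6.98% were called lower. In eIF2alpha it was -0.88 ± 0.16 (edgeR adjusted p = 0.00169), with mean summed reads of 17966 CPM in the cbc+PCF11 group beside 20213 for cbc and 17913 for PCF11. In CG14207 it was -0.91 ± 0.30 (edgeR adjusted p = 0.0625), in CaBP1 -0.23 ± 0.26 (edgeR adjusted p = 0.603) and in Ire1 -0.08 ± 0.38 (edgeR adjusted p = 0.937). The controls, which carry no UAS transgene, enter this term, so an effect of carrying any UAS transgene would also enter it. Whether each transgene was expressed as strongly in the cbc+PCF11 group as alone could not be checked. Unequal doses would enter the term too. The usage interaction of CG14207 was lost in 5 of the 8 fits without 1 library, those without either cbc library, either PCF11 library or cbc+PCF11 library 1 (highest edgeR adjusted p = 0.115).

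**Figure D5:**
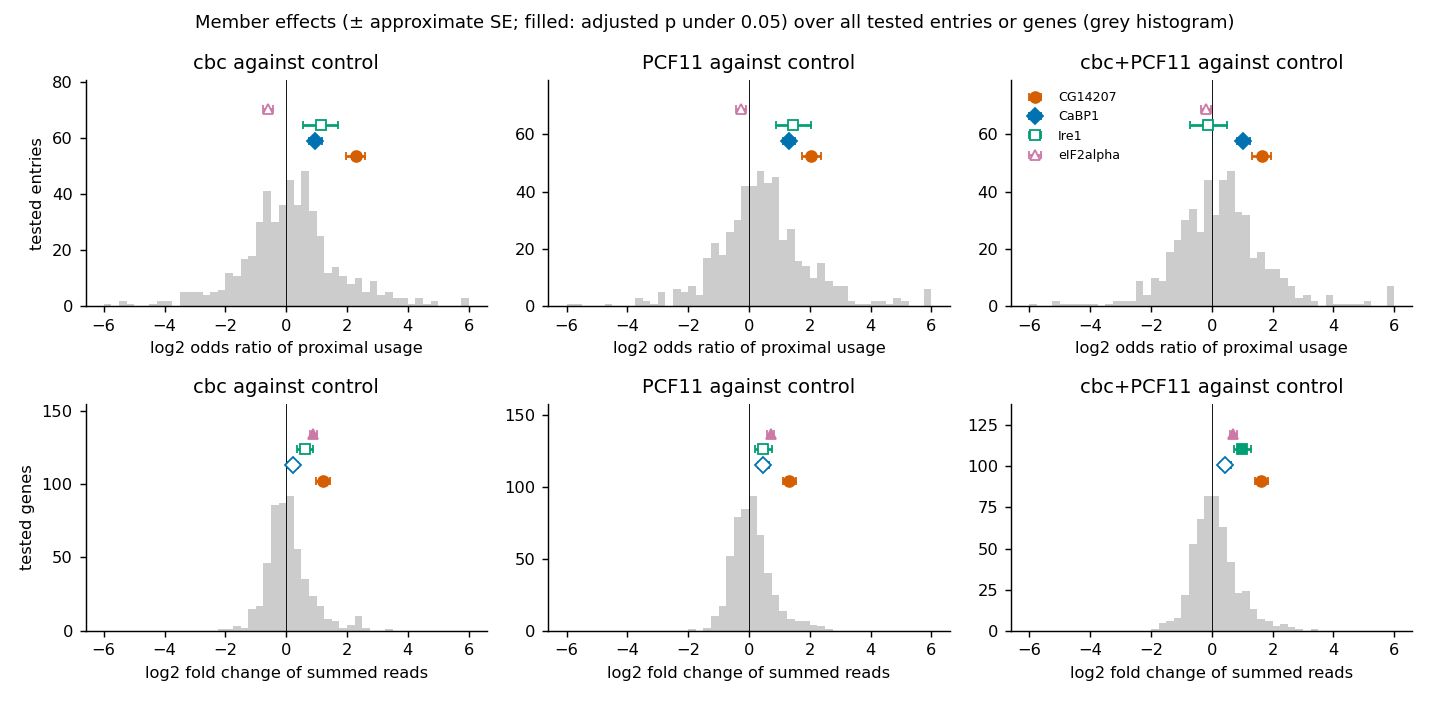
Effects of each genotype against the control for the 4 genes, as log2 odds ratios of proximal usage (top) and log2 fold changes of summed reads (bottom), with approximate SE. Filled symbols passed the test, and grey histograms show all 516 tested entries or genes, with values beyond 6 placed at the edge. CG14207 lies at the right in every panel, and eIF2alpha lies left of 0 for usage and right of 0 for summed reads.

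The authors' deposited table, made with PolyA-miner's beta-binomial test, called more of these genes. There, 47.7% of 421 entries had an adjusted p under 0.05 with cbc, 52% of 427 with PCF11 and 55% of 424 with cbc+PCF11. In the authors' deposited table CG14207 and CaBP1 had negative scores, toward the proximal site, in all 3 comparisons, with adjusted p of 6.42e-08 to 1.81e-04 and of 5.49e-08 to 6.64e-06. Ire1 had an adjusted p of 0.0327 with cbc, 9.36e-05 with PCF11 and 0.801 with cbc+PCF11 in the authors' deposited table. eIF2alpha had positive scores there, toward the distal site, with adjusted p of 8.03e-07, 4.76e-04 and 0.00778. The direction of each member was the same in the authors' deposited table and in the edgeR fit. Both rest on the same window counts, so the shared direction is no independent check.

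Few other genes of protein folding and stress pathways are listed in the tables. Beside the members these were 0 of the other ER folding genes, 0 of the other ER stress sensing genes, 2 of 14 genes of ER-associated degradation, 3 further genes of 61 heat shock proteins and chaperones, 1 of 23 redox genes and 1 further gene of 22 for translation initiation. In usage, 1 of these 7 passed, with PCF11, where 9.11% of all entries were called higher. Whether calls of these 7 genes, in usage or in summed reads, hold without single libraries was not examined. Roe1, the mitochondrial GrpE-type cochaperone, rose with PCF11 from 2.48% ± 0.328 to 5.91% ± 1.67 (edgeR adjusted p = 0.0397), and stood at 2.16% ± 0.622 with cbc and 1.44% ± 0.460 with cbc+PCF11. Hsc70-5, the mitochondrial Hsp70 it works with, had 19.0% ± 5.86 in controls, 22.0% ± 2.56 with cbc, 30.9% ± 0.770 with PCF11 and 31.6% ± 2.11 with cbc+PCF11 (edgeR adjusted p = 0.599, 0.0778 and 0.0680). Herp, an ER membrane protein of the degradation pathway, had no proximal read of 1024 in controls beside 3.43% ± 0.911 with cbc (edgeR adjusted p = 0.135). The DnaJ protein mrj moved the other way, from 10.6% ± 1.75 to 5.26% ± 1.37 with PCF11 (edgeR adjusted p = 0.141).

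In summed reads, 1 of the 7 rose with cbc, 2 with PCF11 and 2 with cbc+PCF11, where 14.1%, 12.6% and 18.8% of all genes were called higher. Trc8, a ubiquitin ligase of the ER membrane, had 1048 CPM ± 294 in controls and rose by log2 1.13 ± 0.19 with cbc, 1.30 ± 0.19 with PCF11 and 1.26 ± 0.19 with cbc+PCF11 (edgeR adjusted p = 3.10e-04, 1.15e-04 and 9.37e-05). The gene mrj rose with PCF11 and with cbc+PCF11, by log2 0.69 ± 0.21 and 0.82 ± 0.21 (edgeR adjusted p = 0.0245 and 0.00650), and stood at 0.26 ± 0.21 with cbc (edgeR adjusted p = 0.379). Roe1 fell with cbc and with PCF11, with log2 changes of -0.55 ± 0.13 and -0.63 ± 0.13 (edgeR adjusted p = 0.00539 and 0.00209), and stood at -0.30 ± 0.13 with cbc+PCF11 (edgeR adjusted p = 0.0807). Hsc70-5, Herp, Gclc (the catalytic subunit of glutathione synthesis) and 4E-T (the eIF4E transporter) did not pass in any genotype, with edgeR adjusted p of 0.0668 to 0.955. The distal windows of Trc8 and Hsc70-5 overlap FipoQ and Mdr50 on the opposite strand, so reads of these pairs cannot be told apart.

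The genes whose profile over the 8 libraries was most like that of each member were found by Pearson's r, as a description, since libraries of a genotype share most of what moves them. For the log2 odds of proximal usage, CaBP1 was most like Rab11 (r = 0.99) and Dnz1 (r = 0.98), CG14207 most like CG31855 and CG1486 (r = 0.98 for each), Ire1 most like Lztr1 (r = 0.92) and hppy (r = 0.82), and eIF2alpha most like Idh3b (r = 0.94) and clu (r = 0.93). For log2 CPM of summed reads, CaBP1 was most like GlcAT-S (r = 0.92) and CG42588 (r = 0.90), CG14207 most like CG8195 (r = 0.97) and Idh3b (r = 0.96), Ire1 most like Pc (r = 0.95) and Pino (r = 0.92), and eIF2alpha most like Deaf1 and Rab11 (r = 0.99 for each).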

How the data were processed

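The authors counted reads from QuantSeq forward libraries in poly(A) windows and deposited raw counts. Per the log of their PolyA-miner run, windows spanned 30 bases at 1098 supplied sites, with strand setting 0 and no molecular identifiers. The name of the site list refers to bam against spermatocytes. The submitters' processing notes name Bowtie, SAMtools and dm6/BDGP6, without versions. Result tables deposited beside the counts hold, per the file headers, the mean proximal fraction in each group, a distal-to-proximal score, and p-values per gene before and after adjustment. The fractions are not printed here.

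The 3 count tables repeat identical control counts and were joined into 8 libraries. R 4.3.3 and edgeR 4.0.16 were used. Proximal against distal reads were fitted by quasi-likelihood with terms for library, site and genotype within site, over all 8 libraries. Entries needed a mean of 10 reads per library and 5 on each side. Summed reads and windows (mean of 10 or more) used TMM factors. Approximate standard errors are the coefficient over the root of F. All 4 members and all 8 of their windows passed these minimums. An exact permutation test of 2 against 2 libraries cannot go below p = 0.333 and was not used. Profiles of usage had a pseudocount of 0.5. The fits were tested on simulated data. Positions come from an annotation of BDGP6 that gives the same start and end as the authors' gene list for 99.6% of 17017 matched genes. Members and gene lists were chosen with earlier results of these data known. Named genes are the members, listed pathway genes, overlapping genes and the 2 most similar genes per member. Alternatives were DESeq2 1.42.0, its size factors, other minimums, fewer libraries, a replicate block and each library left out.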

Additional observations from a re-analysis of the deposited data

Results flagged for a closer look

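In 2 cases the interaction term of the transgenes passed the test for a member. An effect of carrying any UAS transgene would also enter this term, as would unequal doses of a transgene alone and in the cbc+PCF11 group, which could not be checked. The summed reads of eIF2alpha include its distal window, which overlaps rngo on the opposite strand. For proximal usage of CG14207 the term was -2.71 on the log2 odds scale (edgeR adjusted p = 0.0170), with usage of 20.6% ± 1.63 in control libraries, 55.9% ± 1.51 with cbc, 51.9% ± 1.25 with PCF11 and 44.6% ± 7.18 with cbc+PCF11 (SD, n = 2 per group). It was lost in 5 of the 8 fits that left out 1 library (highest edgeR adjusted p = 0.115). For summed reads of eIF2alpha it was -0.88 on the log2 scale (edgeR adjusted p = 0.00169), and it passed without any 1 of the 8 libraries (-1.06 to -0.72).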

How the results depend on the processing

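With 2 libraries per genotype and 154 to 385 reads per library in Ire1, depth limits what can be said of that gene. Usage calls under DESeq2 were 62 for cbc, 5 for PCF11 against cbc, 4 for cbc+PCF11 against cbc, 1 for cbc+PCF11 against PCF11 and 31 for the interaction (39, 0, 0, 0 and 9 by edgeR). With only the 4 libraries compared, edgeR called 23 for cbc, 29 for PCF11 and 15 for cbc+PCF11 against control, beside 39, 54 and 53. For summed reads that setting gave 11 for PCF11 against cbc and 4 for cbc+PCF11 against cbc, and for windows 183 with cbc+PCF11. DESeq2 called 4 genes in summed reads for cbc+PCF11 against cbc and 2 for cbc+PCF11 against PCF11. The log2 difference of CaBP1 in summed reads between cbc+PCF11 and PCF11, -0.02, was 0.0043 with DESeq2 size factors in edgeR and 0.0043 with DESeq2. The cause of these changes was not tested.

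Libraries of the same number deviated together little, with correlations of -0.05 to 0.07 for usage and -0.12 to 0.16 for summed reads, so the numbers were not taken to pair the samples. With the replicate block, usage calls against control were 26, 41 and 42, and 5 for the interaction. In summed reads the block gave 1 call for cbc+PCF11 against cbc and 0 for cbc+PCF11 against PCF11. Of the members' calls it ended that of CaBP1 usage with cbc (log2 odds ratio 0.96, edgeR adjusted p = 0.0564).

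Leaving out 1 library at a time, usage calls ranged from 3 to 39 for cbc, 12 to 51 for PCF11, 7 to 44 for cbc+PCF11 and 0 to 12 for the interaction. Calls in summed reads ranged from 69 to 137, 48 to 116 and 95 to 156 against control, 0 to 10 for cbc+PCF11 against cbc, 0 to 2 for cbc+PCF11 against PCF11 and 22 to 69 for the interaction. Window calls ranged from 112 to 208, 108 to 202 and 109 to 258. Values that changed sign, none of them called with all libraries, were in usage those of Ire1 with cbc+PCF11 (-0.27 to 0.047), Ire1 for PCF11 against cbc (-0.22 to 0.86) and CaBP1 for cbc+PCF11 against cbc (-0.016 to 0.18). In summed reads they were CaBP1 with cbc (-0.047 to 0.53), for cbc+PCF11 against PCF11 (-0.16 to 0.13) and in the interaction (-0.55 to 0.025). They were also Ire1 for PCF11 against cbc (-0.61 to 0.20) and in the interaction (-0.43 to 0.39), CG14207 for PCF11 against cbc (-0.21 to 0.37) and eIF2alpha for cbc+PCF11 against PCF11 (-0.18 to 0.17). In windows they were the distal ones of CaBP1 (-0.33 to 0.25, -0.24 to 0.34 and -0.15 to 0.43 in the 3 comparisons) and of Ire1 with PCF11 (-0.28 to 0.60). A fit with 1 library in a group assumes that it varies like the other groups. DESeq2 also called the usage interaction of CaBP1 and of eIF2alpha (adjusted p = 0.00467 and 0.0428). The planned search for poly(A) signals was not run, as no genome sequence was used here.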
